A study of Rattus norvegicus with 36 samples.

Results

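The cytosolic ribosomal protein genes encode the protein subunits of the ribosomes that translate messenger RNA outside mitochondria. Members were chosen by name: protein-coding genes called Rpl or Rps with a number and at most the letter a, x or l after it, together with the stalk genes Rplp0, Rplp1 and Rplp2. This rule found 80 of the 26142 genes listed in any of the deposited tables, 50 of the large subunit and 30 of the small subunit. The 80 members carry 74 symbols, because Rpl21 is listed 4 times and Rpl32, Rpl7a and Rps27a are each listed 2 times. RNA was sequenced from 4 brain regions of rats, 6 weeks after blast exposure or sham exposure, and all groups share that single time. The blast groups held 5 hippocampus, 5 amygdala, 3 anterior cortex and 5 cerebellum libraries, and the sham groups held 5 hippocampus, 4 amygdala, 5 anterior cortex and 4 cerebellum libraries. The sources used here do not give the strain, age, sex, blast pressure or number of exposures. The labels do not say that the libraries are separate animals, so each p-value reflects the spread among libraries alone, which may be technical.

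A ribosome holds a single copy of nearly every one of these proteins, and cells make the members in matched amounts. Their messenger RNAs are short and abundant, and in vertebrates they typically begin at a C followed by a run of pyrimidines, the terminal oligopyrimidine (TOP) tract, through which the mTOR kinase controls their translation. In the brain the same RNAs are also found in dendrites and axons, where proteins are made far from the cell body.

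The start of the transcript is shown for a few members that the results below turn on, because the TOP tract lies there. Each window covers 36 bases in the direction of transcription, 16 before the RefSeq start and 20 from it on, in the RefSeq assembly GRCr8. Capitals mark matches to the string CTTTC, the string CTTCC or the string CTCTT, pyrimidine-only strings of the kind a TOP tract holds, and neighbouring matches may overlap. The first 4 are members with small p-values in the blast comparisons, the next 4 differed between cerebellum and forebrain, and the last pair are the paralogues Rps27 and Rps27l.
Rpl37a (chr9:81748075-81748110, plus strand): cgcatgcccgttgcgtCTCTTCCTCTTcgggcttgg
Rpl31 (chr9:49143095-49143130, plus strand): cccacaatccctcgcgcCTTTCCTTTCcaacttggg
Rps18 (chr20:4933729-4933764, plus strand): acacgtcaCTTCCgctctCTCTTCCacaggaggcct
Rps21 (chr3:187724022-187724057, plus strand): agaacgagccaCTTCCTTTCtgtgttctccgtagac
Rplp1 (chr8:71290853-71290888, minus strand): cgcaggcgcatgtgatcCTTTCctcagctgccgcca
Rpl35 (chr3:43165902-43165937, minus strand): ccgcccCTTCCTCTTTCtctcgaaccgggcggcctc
Rps15 (chr7:10068096-10068131, minus strand): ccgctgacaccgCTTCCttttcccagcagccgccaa
Rpl13a (chr1:104748894-104748929, minus strand): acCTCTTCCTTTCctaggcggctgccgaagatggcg
Rps27 (chr2:177964587-177964622, minus strand): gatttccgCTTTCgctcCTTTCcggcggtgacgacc
Rps27l (chr8:76443642-76443677, plus strand): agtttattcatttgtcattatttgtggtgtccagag
Rplp1, the stalk gene, has a CTTTC that starts 1 base after the annotated start, whereas the window of Rps27l holds none of the 3 strings. The windows of Rplp0 and Rpl36, which are not shown, hold none either. Both also had small p-values, Rplp0 in cerebellum against forebrain and Rpl36 in the blast comparisons, so the windows shown do not stand for all such members. Of the 74 member symbols, 59 had a window, and 40 of these (67.8%) held at least 1 of the 3 strings on the transcribed strand, against 14.3% of all 33469 promoter windows of the same length. On either strand the shares were 72.9% of member windows and 28.4% of all windows. A match is a string of letters in the window and does not show that a tract is used.

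The libraries held 15426786 to 23460322 counts on genes, and the 80 members together took 0.702% to 1.22% of them. Levels are given as CPM (counts per 1000000 counts on genes in the library), and between genes only as CPM per kilobase of the deposited gene length. Values of a group follow the numbers in the library titles, which are 1, 2, 5, 6 and 9 for blast (1, 5 and 6 in anterior cortex) and 10, 12, 13, 16 and 18 for sham (no 10 in amygdala, no 12 in cerebellum). Genes that mark cerebellar neurons summed to 5059 to 5773 CPM in cerebellum and to at most 247 CPM elsewhere, as the tissue labels say. Some libraries stood apart in markers of other tissue. Choroid plexus genes, which mark the tissue that makes cerebrospinal fluid, summed to 8936 and 2815 CPM in hippocampus blast 6 and 2, to 2075 CPM in amygdala blast 9, and to 3029 and 2088 CPM in cerebellum sham 13 and blast 5. The title of hippocampus blast 6 carries the extra letters re, which the labels do not explain, and this library was also highest in oligodendrocyte genes, at 25324 CPM, and lowest in excitatory neuron genes within hippocampus, at 3949 CPM. In tissue libraries like these, fewer cells of a type and less RNA per cell cannot be told apart.

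Per kilobase, Rplp1, an acidic stalk protein that recruits elongation factors, was the highest member, with 525 CPM per kilobase averaged over the sham means of the 4 regions. Rpl35 and Rps15 followed at 418 and 380.03 CPM per kilobase. The order depends on the deposited gene lengths, and Rpl3 and Rpl7, with lengths of 3506 and 5151 bases, ranked 52 and 61. In sham anterior cortex Rplp1 stood at 765 ± 56.7 CPM per kilobase and Rpl35 at 558 ± 48.3 CPM per kilobase (SD, n = 5). The SDs of Rpl35 and Rps15 overlapped there, with Rps15 at 498 ± 41.9 CPM per kilobase. The lowest members with a value in every region were Rpl38, Rpl21 (chr 3) and Rpl37, at 0.0856, 0.184 and 0.245 CPM per kilobase. Rpl39, listed in 3 of the 4 tables, stood at or under 0.432 CPM per kilobase in their sham means. These low rows do not stand for the usual gene of that symbol in all cases. In the deposited annotation 12 members lie on another chromosome than the RefSeq gene of their name, and all 12 have a gene length equal to their span, that is, no intron. Among them are the only rows listed for Rpl9, Rpl30, Rpl35a, Rpl36a, Rpl37, Rpl38 and Rps29, so those counts are uncertain as measures of the genes. The only Rpl39 row lies on the chromosome of its RefSeq gene, but its length of 156 bases also equals its span. Its counts are uncertain in the same way. The filter on low counts kept 74 members in each forebrain region and 71 in cerebellum. Rpl21 (chr 3), Rpl37, Rpl38, Rpl39 and Rpl39l passed in no region. Rpl3l passed in hippocampus only, Rps29 in amygdala and anterior cortex, and Rpl10l and Rpl35a in every region but cerebellum.

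In hippocampus, 69 of the 74 members tested were higher in blast than in sham libraries and 5 were lower, with a median log2 fold change of 0.21. Over all 15349 genes tested, 50.6% were higher and the median was 0.0023. No member passed edgeR's quasi-likelihood test at a Benjamini-Hochberg adjusted p of 0.05, and neither did any other gene (0% called). At an unadjusted p of 0.05, 28 members were higher and 1 was lower, against 3.97% of all genes higher and 1.28% lower, and DESeq2 called 0 members (0.00425% of all genes). The 28 became 12 with a choroid plexus covariate, 16 without sham 16, 17 without sham 13, 18 without blast 1, 43 without blast 9 and 47 without sham 12. The median log2 fold change was 0.20 for 45 large-subunit members and 0.23 for 29 small-subunit members.

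The hippocampal member of smallest p was Rpl37a, a zinc-finger protein of the large subunit on chromosome 9. It had 173, 146, 138, 179 and 107 CPM in blast libraries and 109, 122, 107, 87.96 and 100.4 CPM in sham libraries. Blast 1, 2, 5 and 6 lay above every sham library and blast 9 lay among them, so the groups overlapped. The log2 fold change was 0.48 (SE 0.12) and the edgeR adjusted p was 0.816. Rpl31, a large-subunit protein near the exit of the peptide tunnel, had 122, 115, 122, 143 and 102 CPM in blast and 92.5, 112, 93.9, 78.4 and 93.0 CPM in sham libraries. Blast 6 was again the highest, and sham 12 stood within the blast range. Its log2 fold change was 0.35 (SE 0.0962). Rps21, a small-subunit protein, had 69.0, 54.2, 48.2, 62.2 and 38.4 CPM in blast and 44.5, 41.2, 37.6, 22.5 and 32.99 CPM in sham libraries, a log2 fold change of 0.59 (SE 0.18). Only blast 9 fell within the sham range. Rps18, Rps23 and Rps16, all of the small subunit, had log2 fold changes of 0.31 (SE 0.0878), 0.35 (SE 0.11) and 0.38 (SE 0.12). All 6 had an edgeR adjusted p of 0.816, and in no member did the hippocampal groups separate fully, against 0.534% of all genes higher and 0.313% lower in blast without overlap.

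Among the stalk genes in hippocampus, Rplp0, the base of the stalk, had a log2 fold change of 0.15 (SE 0.0705) and Rplp1 one of 0.19 (SE 0.0896). Rpl3, a core large-subunit protein close to the catalytic centre, was nearly level, at 361, 367, 359, 377 and 345 CPM in blast and 335, 398, 329, 319.6 and 339 CPM in sham libraries, with a log2 fold change of 0.062 (SE 0.0679). Its highest library was sham 12. Rps27 had a log2 fold change of 0.38 (SE 0.14). The edgeR adjusted p of these 4 members lay between 0.816 and 0.843. Of the choroid plexus markers, 11 of 11 tested were higher in hippocampal blast libraries, and the summed level of the whole list of 14 ran from 12.2 to 8936 CPM in blast and from 17.0 to 551 CPM in sham libraries, with Otx2 at 0 in both groups. The oligodendrocyte list ran from 9257 to 25324 CPM in blast and from 7669 to 10750 CPM in sham libraries, with 14 of 14 markers higher and none at 0. With a choroid plexus covariate, 67 of 74 members were higher and the median was 0.14, and without blast 6, 68 of 74 were higher and the median was 0.16. For other markers the summed levels overlapped between blast and sham libraries. Microglia genes were higher in blast for 16 of 16, with a median log2 fold change of 0.22, and summed to 532 to 679 CPM in blast and 470.3 to 587 CPM in sham libraries. Astrocyte genes were higher for 13 of 13 (median 0.091), at 6635 to 8542 CPM in blast and 6670.1 to 7399 CPM in sham libraries, and endothelial genes for 11 of 11 (median 0.13), at 421 to 615 CPM in blast and 402 to 503 CPM in sham libraries. Fibroblast genes were higher for 9 of 10 (median 0.33), at 174 to 852 CPM in blast and 172 to 211 CPM in sham libraries. Excitatory neuron genes were higher for 2 of 10 (median -0.089), at 3949 to 6937 CPM in blast and 6326 to 7089 CPM in sham libraries. No gene of the microglia, astrocyte, endothelial, fibroblast or excitatory neuron list was at 0. The part of these lists and of oligodendrocyte RNA in the members' result was not tested.

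**Figure D1:**
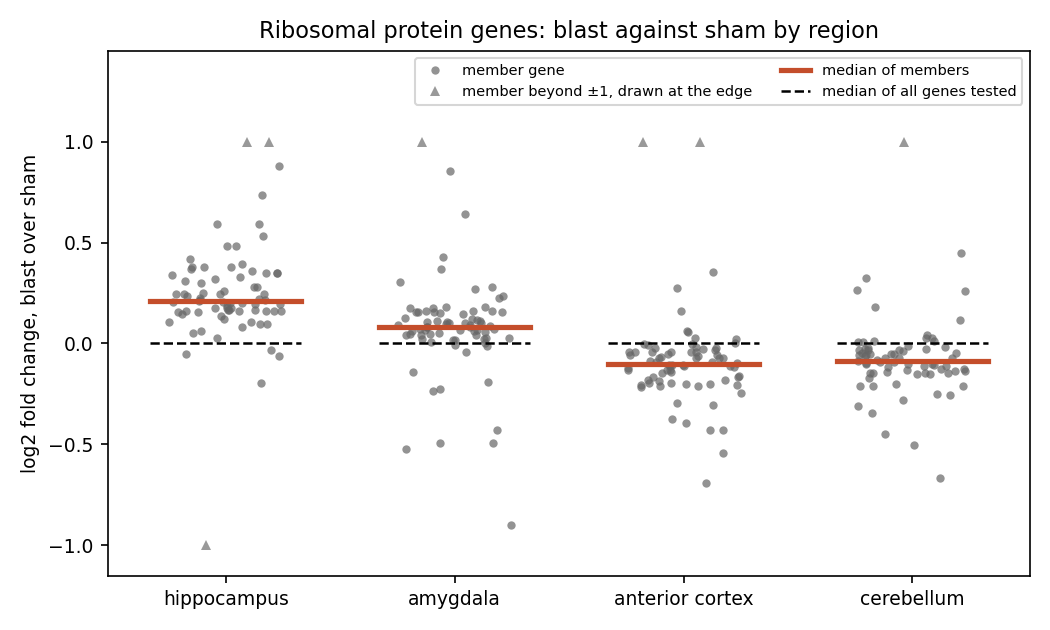
Log2 fold change of each tested ribosomal protein gene, blast over sham, by region (vertical axis), with the median of the members (solid line) and of all genes tested (dashed line). The member median was 0.21 for hippocampus, 0.084 for amygdala, -0.10 for anterior cortex and -0.088 for cerebellum, and triangles at the edges are members beyond 1 in either direction.

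In amygdala, 62 of 74 members were higher in blast libraries and 12 lower, with a median log2 fold change of 0.084. Over all 15884 genes tested, 51% were higher and the median was 0.0033. EdgeR called no member and no gene (0% called). At an unadjusted p of 0.05, 12 members were higher, against 2.8% of all genes, and 1 was lower, against 2.42%. DESeq2 called 1 member, Rpl21 (chr 12), among 0.0335% of all genes. In CPM, the blast libraries lay wholly above the sham libraries for 3 members, Rpl36, Rps2 and Rps20, against 0.762% of all genes. On TMM-scaled library sizes, which the fits use, Rpl11, Rpl23, Rpl27a and Rps18 separated as well, making 7 members, against 0.743% of all genes. In the other regions the same members separated on both scales.

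Rpl21 (chr 12), a large-subunit protein whose other 3 rows are intronless, had 120.0, 141, 97.1, 127 and 132 CPM in blast and 79.5, 71.2, 99.4 and 67.6 CPM in sham amygdala. Only blast 5 fell below the highest sham library. The log2 fold change was 0.64 (SE 0.12), with an adjusted p of 0.901 in edgeR, 0.00653 in DESeq2 and 0.0161 in the authors' deposited table. Over all libraries this row held 30.8% to 58.7% of the counts summed over the 4 Rpl21 rows, and with the rows summed the log2 fold change in amygdala was 0.35 (SE 0.0822) at an edgeR adjusted p of 0.901. Rpl36, a large-subunit protein, had 139, 133, 128, 111 and 123 CPM in blast and 101, 102, 109 and 99.8 CPM in sham libraries. Every blast library was above every sham library, the log2 fold change was 0.30 (SE 0.0650) and the edgeR adjusted p was 0.901. Rps20, which sits in the head of the small subunit, had 86.0, 93.4, 86.5, 81.1 and 93.3 CPM in blast and 76.9, 73.9, 76.0 and 65.6 CPM in sham libraries. These groups did not overlap either, and the log2 fold change was 0.27 (SE 0.0627). Rps18, Rps16 and Rps2 had log2 fold changes of 0.24 (SE 0.0688), 0.28 (SE 0.0881) and 0.22 (SE 0.0728), at the same edgeR adjusted p of 0.901. In amygdala, Rpl37a had a log2 fold change of 0.047 (SE 0.0729) and Rplp1 one of 0.0052 (SE 0.0699). Choroid plexus markers ran from 37.1 to 2075 CPM in blast and from 34.9 to 82.2 CPM in sham amygdala, with 11 of 11 tested higher and Otx2 at 0 in both groups. With the covariate for that list, 57 of 74 members were higher and the median was 0.065, and without blast 9, the library richest in the list, 57 of 72 were higher and the median was 0.061. Microglia genes were higher in blast for 16 of 16 (median log2 fold change 0.15), at 686 to 910.2 CPM in blast and 663 to 852 CPM in sham libraries, and endothelial genes for 11 of 11 (median 0.19), at 553 to 711 CPM in blast and 545 to 615 CPM in sham libraries. Inhibitory neuron genes were higher for 3 of 13 tested (median -0.16), at 1462 to 1599.98 CPM in blast and 1508 to 1760.1 CPM in sham libraries. None of these genes was at 0, and their part in the members' result was not tested.

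In anterior cortex the members leaned the other way, with 64 of 74 lower in blast libraries, 10 higher, and a median log2 fold change of -0.10. Over all 15765 genes tested, 50.2% were higher and the median was 0.00051. EdgeR called no member among 0.00634% of all genes called, and DESeq2 called no member either (0.052% of all genes). At an unadjusted p of 0.05, 7 members were lower, against 3.39% of all genes, and 1 was higher, against 2.43%. With 3 blast libraries, single libraries moved the size. Without blast 6 the median was -0.21 and 24 members were lower at that threshold, whereas without blast 5 the median was -0.035, with 1 member lower. Without sham 10 the median was -0.072, with 2 members lower. The 7 became 14 without sham 12, 4 without sham 13, 3 without blast 1, 2 without sham 16 and 3 with the length trend removed.

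Rpl36 was the anterior cortex member of smallest p, with 75.1, 110.2 and 93.9 CPM in blast and 130.5, 104, 111, 144 and 120.3 CPM in sham libraries. Blast 5 lay within the sham range and the other 2 blast libraries below it. The log2 fold change was -0.39 (SE 0.12) and the edgeR adjusted p 0.842. Rps21 had 32.5, 51.2 and 71.2 CPM in blast and 94.9, 55.9, 56.6, 87.0 and 81.0 CPM in sham libraries, a log2 fold change of -0.54 (SE 0.23). The groups overlapped through blast 6. Rpl41, the smallest ribosomal protein, had a log2 fold change of -0.37 (SE 0.15), and Rpl15 and Rpl28, both of the large subunit, had -0.20 (SE 0.0750) and -0.21 (SE 0.0918), all at an edgeR adjusted p of 0.842. Rplp0 and Rplp1 had values near 0, at 0.026 (SE 0.0772) and -0.0012 (SE 0.0854) on the log2 scale. The direction of Rplp1 turned with another scaling, to 0.00055 under RLE. Choroid plexus markers were low in all libraries, at 21.0 to 72.6 CPM in blast and 16.1 to 55.6 CPM in sham, with Otx2 at 0 in both groups. Adding them as a covariate left 66 of 74 members lower and the median at -0.11. Fibroblast genes were higher in blast for 10 of 10 (median log2 fold change 0.24), at 308 to 666 CPM in blast and 294 to 601 CPM in sham libraries. Endothelial genes were higher for 10 of 11 (median 0.16), at 824 to 1012 CPM in blast and 665 to 917 CPM in sham libraries, and oligodendrocyte genes for 13 of 14 (median 0.10), at 7637 to 9597 CPM in blast and 6586 to 10006.5 CPM in sham libraries. Inhibitory neuron genes were higher for 3 of 13 tested (median -0.22), at 1256 to 1389 CPM in blast and 1270.4 to 1516 CPM in sham libraries. None of these genes was at 0, and their part in the members' result was not tested.

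In cerebellum, 57 of 71 members were lower in blast libraries and 14 higher, with a median log2 fold change of -0.088. Over all 15225 genes tested, 50% were higher and the median was -3.49e-05. EdgeR called no member and no gene (0% called), and at an unadjusted p of 0.05 it found 7 members lower, against 3.26% of all genes, and 0 higher, against 3.55%. DESeq2 called 1 member, Rps21, among 0.138% of all genes. Without sham 13 the median was -0.043 with 3 members lower at that threshold, and without blast 1 it was -0.045 with 5 lower. The 7 became 11 without blast 5, without sham 10 or without sham 18, and 4 with the length trend removed. Choroid plexus markers ran from 41.2 to 2088 CPM in blast and from 47.8 to 3029 CPM in sham libraries, with 0 of 13 tested higher in blast. With that list as a covariate 57 of 71 members were lower and the median was -0.079. Astrocyte genes were higher in blast for 2 of 13 (median log2 fold change -0.066), at 7624 to 8351 CPM in blast and 7980.3 to 8203 CPM in sham libraries, and oligodendrocyte genes for 3 of 14 (median -0.067), at 7593 to 9237 CPM in blast and 8359.6 to 8955 CPM in sham libraries. None of these genes was at 0, and their part was not tested.

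Rpl12, a large-subunit protein at the base of the stalk, separated the cerebellar groups fully. It had 163, 171, 170.0, 163 and 168 CPM in blast and 186, 184, 185 and 183 CPM in sham libraries. The difference was small but the libraries of each group lay close together. The log2 fold change was -0.15 (SE 0.0334), with an adjusted p of 0.509 in edgeR and 0.0377 in the authors' deposited table. Rps15a, a small-subunit protein, was the other member without overlap, against 1.14% of all genes lower in blast without overlap. It had 83.6, 105, 108, 110.2 and 108 CPM in blast and 110.3, 139, 127 and 113 CPM in sham libraries, a log2 fold change of -0.25 (SE 0.0876) at an edgeR adjusted p of 0.673. Blast 1 was its lowest library by a wide gap. Rps21 had 28.9, 27.4, 29.3, 23.996 and 33.7 CPM in blast and 31.0, 49.2, 44.8 and 37.4 CPM in sham libraries. Sham 10 fell within the blast range and the other 3 sham libraries lay above it. The log2 fold change was -0.50 (SE 0.13), with an adjusted p of 0.531 in edgeR, 0.0465 in DESeq2 and 0.0353 in the authors' deposited table. Rpl37a had a log2 fold change of -0.34 (SE 0.10) at an edgeR adjusted p of 0.590, Rpl10 one of -0.14 (SE 0.0528) at 0.689, and Rpl28 one of -0.15 (SE 0.0624) at 0.721.

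Single libraries were the highest or the lowest of their region for many members at once. In hippocampus, blast 6 was the highest of the 10 libraries for 43 of the 74 members tested and sham 16 the lowest for 46. In anterior cortex sham 10 was the highest for 43 of 74 members tested, and in cerebellum sham 13 was the highest for 38 of 71. The members took 0.964, 0.898, 0.924, 1.08 and 0.790% of counts in hippocampal blast libraries and 0.783, 0.936, 0.792, 0.702 and 0.785% in hippocampal sham libraries. Sham 12 lay above blast 2, 5 and 9. In amygdala the shares were 1.05, 1.05, 1.01, 0.982 and 1.09% in blast and 0.993, 0.942, 1.001 and 0.934% in sham libraries. Only blast 6 fell under the highest sham library there. In anterior cortex they were 0.978, 1.01 and 1.17% in blast and 1.22, 1.02, 1.14, 1.1503 and 1.08% in sham libraries, and in cerebellum 0.779, 0.812, 0.890, 0.848 and 0.867% in blast and 0.863, 0.952, 0.873 and 0.815% in sham libraries. The groups overlapped in all 4 regions.

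**Figure D2:**
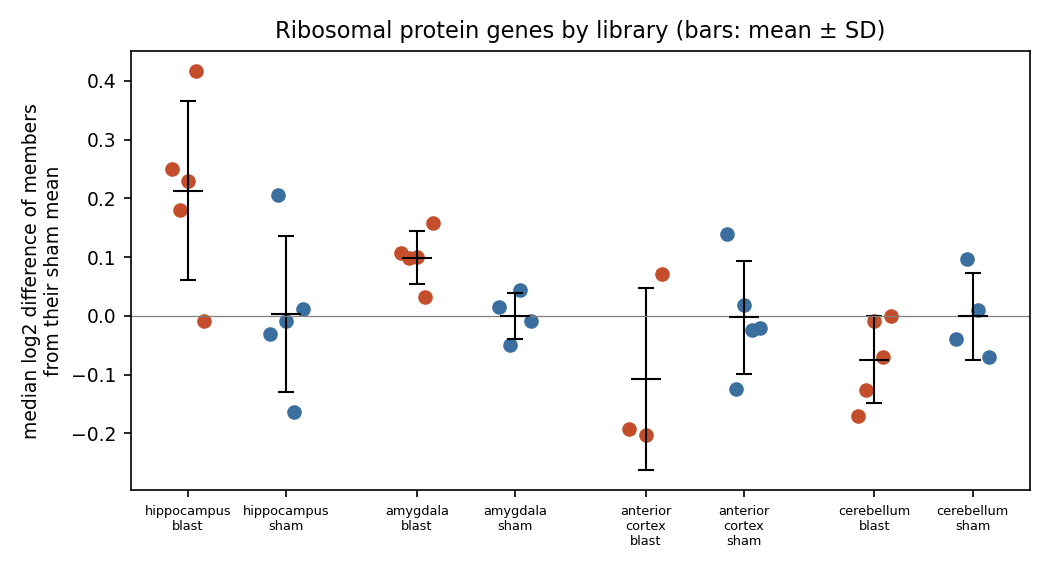
Median over the ribosomal protein genes of the log2 difference from their sham mean, 1 point per library, with the mean and SD of each group (vertical axis, log2 scale). In hippocampus blast 6 stood highest at 0.42 and sham 16 lowest at -0.16, and blast and sham points overlap in every region.

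The difference between regions was tested gene by gene, as the region by treatment terms of a fit over all 36 libraries. This fit and the fit over sham regions below treated libraries as independent, although equal numbers in different regions may mark the same rat. No member of the 75 tested passed edgeR's quasi-likelihood test (0.0117% of all 17120 genes called), while 29 had an unadjusted p under 0.05, against 5.36% of all genes. Rpl37a had the smallest p, with an edgeR adjusted p of 0.521, and was the single member DESeq2 called (adjusted p = 0.0435, with 0.0189% of all genes called). On the log2 scale its blast difference was 0.48 for hippocampus, 0.047 for amygdala, -0.20 for anterior cortex and -0.34 for cerebellum. Rpl36, Rpl31 and Rps21 followed, each at an edgeR adjusted p of 0.585, then Rps18 at 0.624 and Rpl7a (chr 3 distal) at 0.629. For Rps21 the log2 differences were 0.59 (hippocampus), 0.10 (amygdala), -0.54 (anterior cortex) and -0.50 (cerebellum).

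The members are short genes, with a median deposited length of 633 bases and a range of 156 to 5151 bases, against a median of 2321 bases for genes tested in hippocampus. Short protein-coding genes that are not members leaned the same way as the members in each region. Under 500 bases, the median log2 fold change in hippocampus was 0.32 for 22 members and 0.093 for 331 other genes. In amygdala it was 0.15 for 23 members and 0.024 for 343 other genes. In anterior cortex it was -0.18 for 23 members and -0.12 for 345 others, and in cerebellum -0.13 for 21 members and -0.051 for 324 others. From 500 to under 1000 bases, 30 members and 1073 other genes had nearly the same median in anterior cortex, -0.089 and -0.091. In hippocampus 30 members of that length had 0.19 and 1021 other genes 0.061. After the trend with length was removed, 68 of 74 members were higher in hippocampus with a median of 0.16, and 56 of 74 were higher in amygdala with a median of 0.058. In anterior cortex 36 of 74 were then higher, with a median of -0.0059, and in cerebellum 23 of 71 were higher, with a median of -0.027.

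**Figure D3:**
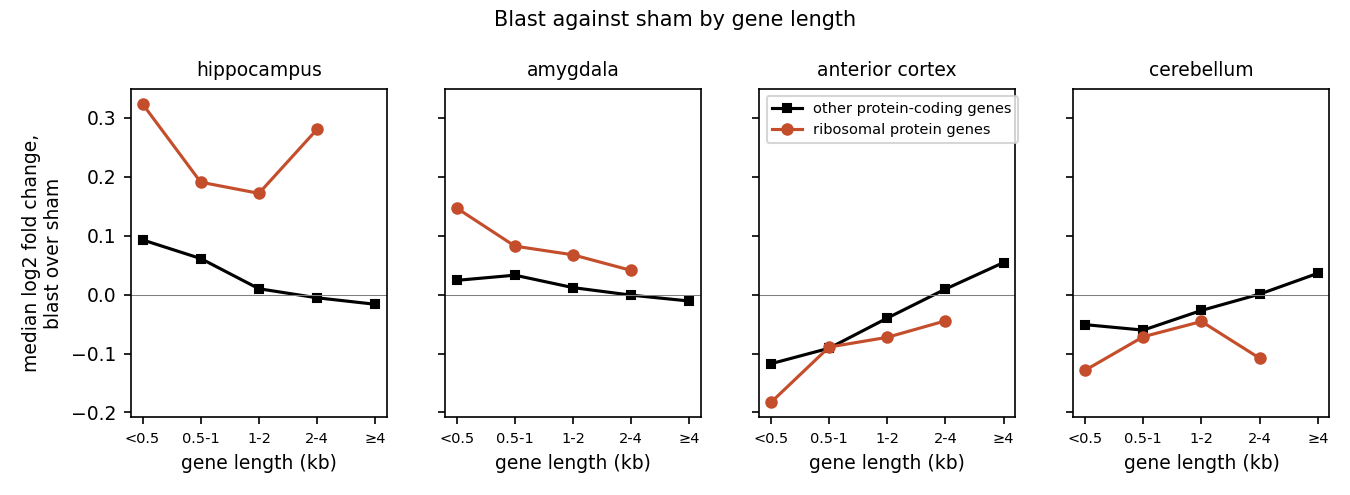
Median log2 fold change, blast over sham (vertical axis), by deposited gene length in kilobases (horizontal axis), for ribosomal protein genes and for other protein-coding genes, with member bins of at least 5 genes drawn. The other genes slope down with length in hippocampus, from 0.093 to -0.016, and up in anterior cortex, from -0.12 to 0.054. The member bin of 2 to 4 kilobases holds 5 genes.

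Like the members, the other lists of protein synthesis genes held no gene called by edgeR for blast against sham. Of all genes tested, edgeR called only 1, in anterior cortex (0.00634%), and 0% in every other region. With so few calls, their absence from these lists cannot set the lists apart from other genes. The initiation factors, which bring ribosomes to messenger RNA, had 18 of 33 higher in hippocampus with a median log2 fold change of 0.0064, and 18 of 33 lower in anterior cortex with a median of -0.019. In amygdala 17 of 33 were lower (median -0.017), and in cerebellum 22 of 33 (median -0.017). Elongation and termination factors had 9 of 14 higher in hippocampus (median 0.026) and 11 of 14 lower in cerebellum (median -0.065). In amygdala 8 of 14 were higher (median 0.040), and in anterior cortex 7 of 14 (median -0.017). Other genes known for TOP messages, such as Eef2 and Pabpc1, filled 20 rows, 2 of them for Rack1, and had 14 of 20 higher in hippocampus (median 0.041) and 14 of 20 higher in amygdala (median 0.041). In anterior cortex 13 of 20 were lower (median -0.037), and in cerebellum 15 of 20 (median -0.044). Ribosome assembly factors had 35 of 56 lower in hippocampus (median -0.0088), and mTOR pathway genes 20 of 28 lower (median -0.039). In amygdala 29 of 56 assembly factors were lower (median -0.0029) and 18 of 28 mTOR genes higher (median 0.027). In anterior cortex 36 of 57 assembly factors (median -0.052) and 15 of 28 mTOR genes (median -0.0012) were lower. In cerebellum 30 of 56 assembly factors (median 0.012) and 17 of 28 mTOR genes (median 0.0063) were higher. The mitochondrial ribosomal proteins, the gene family most alike in kind, had 47 of 73 higher in hippocampus (median 0.029) and 62 of 73 lower in anterior cortex (median -0.12). In amygdala they were balanced, with 35 of 73 higher, and in cerebellum 58 of 73 were lower (median -0.072). A short list of other ribosomal genes had 7 of 9 higher in hippocampus (median 0.024) but 5 of 9 lower in amygdala (median -0.096), where most members were higher. In anterior cortex 6 of 9 were lower (median -0.11), and in cerebellum 7 of 8 (median -0.080).

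Among sham libraries, 60 of the 75 members tested differed among the 4 regions by edgeR's quasi-likelihood test, a share close to the 81% of all genes called. The mean CPM of a member was highest in anterior cortex for 59 of the 80 rows and lowest in hippocampus for 57. Cerebellum was set against the mean of the 3 forebrain regions, since it is built mostly of granule cells. Fold changes rest on TMM-scaled library sizes, whose factors were 1.06 to 1.11 in sham cerebellum and 0.888 to 1.05 in sham forebrain libraries, and so differ from ratios of CPM. By edgeR's test 39 members were lower in cerebellum, against 35.1% of all genes, and 3 were higher, against 34.8%. The median over the 75 members was -0.24 and that over all 16381 genes -0.0066. In the blast libraries, which are other libraries, 38 of the 39 and 3 of the 3 were again called in the same direction. There 35.3% of all genes were lower and 34.8% higher, but these shares are over all genes tested. The share of all genes called in sham that were called again in blast was not counted. The repeat therefore cannot be read as particular to the members.

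Rplp1 had the smallest p of the members that were lower in cerebellum. It averaged 150.03 ± 17.8 CPM in sham cerebellum (SD, n = 4), against 226 ± 28.6 in hippocampus (n = 5), 285 ± 19.997 in amygdala (n = 4) and 379 ± 28.1 in anterior cortex (n = 5). Neither treatment's cerebellar range reached those of the forebrain regions. The log2 fold change was -1.10 (SE 0.0820, adjusted p = 2.74e-10) in edgeR's test and -1.36 in the blast libraries. Its stalk partner Rplp0 averaged 267 ± 15.5 CPM in sham cerebellum, against 313 ± 23.2 in hippocampus, 346 ± 12.6 in amygdala and 406 ± 27.1 in anterior cortex, a log2 fold change of -0.54 (SE 0.0553, adjusted p = 2.93e-08) by edgeR. Rpl35, at the exit of the peptide tunnel, had a log2 fold change of -0.53 (SE 0.0564, adjusted p = 5.09e-08), and Rps15, of the small-subunit head, -0.46 (SE 0.0495, adjusted p = 6.71e-08), both by edgeR. Sham cerebellum and hippocampus did not separate for Rpl35 (148 ± 5.43 and 147 ± 12.3 CPM) or for Rps15 (174 ± 7.62 and 171 ± 8.51 CPM), while amygdala and anterior cortex stood above both. Rpl41, Rpl29, Rps18 and Rps4x were also called lower in cerebellum than in the mean of the forebrain regions. Their edgeR log2 fold changes were -0.94, -0.80, -0.48 and -0.49, with adjusted p of at most 1.96e-06. For each of them the SDs of sham cerebellum and hippocampus overlapped, while amygdala and anterior cortex stood above cerebellum. Rps18 was level, at 108 ± 11.6 CPM in cerebellum and 106 ± 9.94 CPM in hippocampus. Rpl29 had 119 ± 18.9 and 163 ± 29.03 CPM there.

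Rpl13a, Rpl18 and Rpl24 were the 3 members called higher in cerebellum, of 13 with a log2 fold change above 0. Rpl13a, a large-subunit protein known in human cells for silencing inflammatory messages after its release from the ribosome, averaged 33.2 ± 4.15 CPM in sham cerebellum, against 17.6 ± 1.97 in hippocampus, 17.3 ± 2.73 in amygdala and 19.9 ± 1.64 in anterior cortex. Its log2 fold change was 0.72 (SE 0.0888, adjusted p = 4.51e-07) by edgeR. With a deposited length of 2703 bases, the Rpl13a row ranked 67 among the members per kilobase. It averaged 8.14 CPM per kilobase over the sham means of the regions. Rpl18 and Rpl24 had log2 fold changes of 0.41 (SE 0.0661, adjusted p = 1.55e-05) and 0.30 (SE 0.0651, adjusted p = 0.000389) by edgeR. Rpl3 stood near the threshold. It had 359 ± 18.9 CPM in sham cerebellum, against 344 ± 31.2 in hippocampus, 361 ± 13.9 in amygdala and 351 ± 16.1 in anterior cortex, with an edgeR adjusted p of 0.0605 and -0.12 on the log2 scale. It was called by DESeq2 (adjusted p = 0.0325), by edgeR under RLE (adjusted p = 0.0380), by edgeR in the blast libraries (adjusted p = 0.00777) and in 10 of 18 edgeR fits that left out 1 library.

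**Figure D4:**
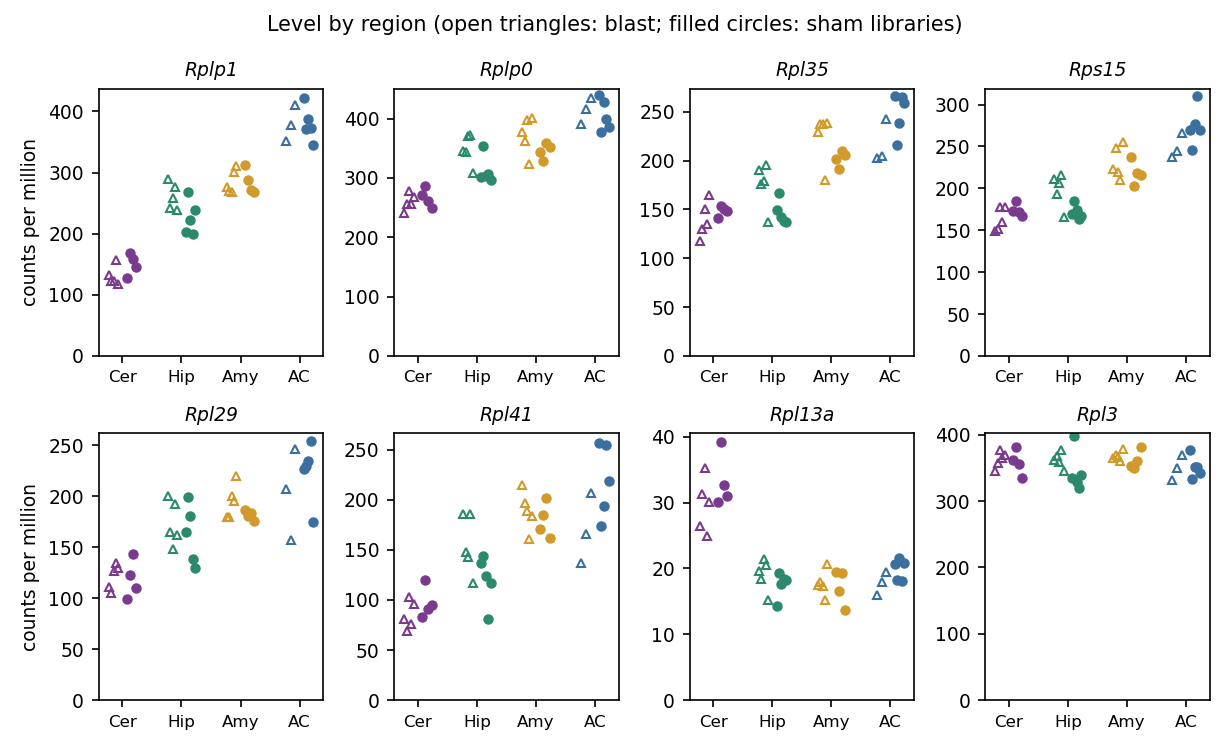
CPM (vertical axis) of 8 ribosomal protein genes by region, cerebellum (Cer), hippocampus (Hip), amygdala (Amy) and anterior cortex (AC), with blast libraries as open triangles and sham libraries as filled circles. Rplp1 averaged 150.03 ± 17.8 CPM in sham cerebellum against 379 ± 28.1 CPM in sham anterior cortex, Rpl13a is highest in cerebellum, and Rpl3 is near level.

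Several members are listed more than once or vary in ways that their group does not follow. Rps27a, which encodes a fusion of ubiquitin with a small-subunit protein, has a row with introns on chromosome 14 and an intronless row on chromosome 5. The 2 rows summed to 175 to 298 CPM, but the share on chromosome 14 ran from 24.96% to 83.3% and exceeded 50% in 12 of the 36 libraries. In hippocampus the chromosome 14 row held 84.7, 63.3, 59.1, 145 and 57.3 CPM in blast and 56.8, 156, 78.3, 67.3 and 53.4 CPM in sham libraries. The chromosome 5 row moved against it, with 139, 142, 159, 80.3 and 134 CPM in blast and 118.6, 46.8, 98.3, 114 and 127 CPM in sham libraries. Their log2 fold changes were -0.03 (SE 0.32) and 0.37 (SE 0.25), and 0.20 when the rows were summed, a check chosen after the data were seen. How the authors' counting shared reads between copies is unknown from the sources used here, so neither row can be read as the gene.

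**Figure D5:**
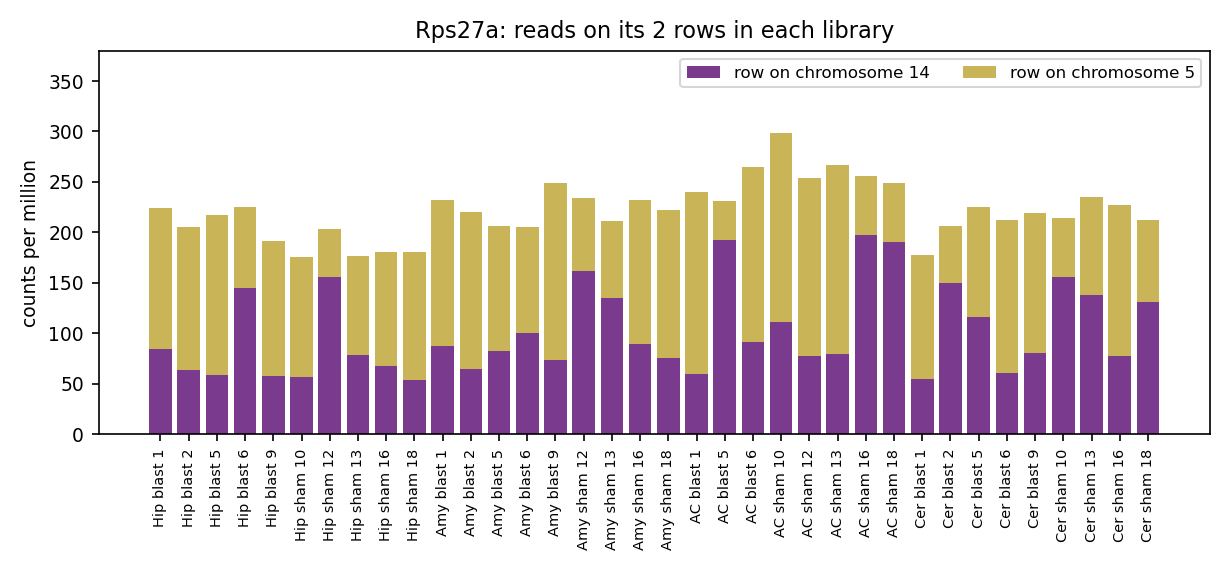
CPM on the Rps27a rows of chromosome 14 and chromosome 5 in each of the 36 libraries (vertical axis), stacked, with blast libraries left of sham libraries in every region. The stacked height ran from 175 to 298 CPM, while the chromosome 14 share ran from 24.96% to 83.3%.

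The 2 Rpl7a rows lie on chromosome 3 at 4867233 to 4869656 and 5459160 to 5461583 in the deposited annotation, of a build that the sources used here do not name, and have the same length of 798 bases. The distal row held 106 CPM in hippocampus sham 12 and 126 CPM in amygdala blast 1, whereas the other 34 libraries had 4.05 CPM or less. The proximal row exceeded 10 CPM in 5 libraries and stayed at or under 6.25 CPM in 31. In anterior cortex it had a log2 fold change of 1.52 (SE 0.55) at an edgeR adjusted p of 0.842, which became -0.23 without blast 6, where it stood at 35.2 CPM. The distal row was the single member whose anterior cortex blast libraries lay wholly below the sham libraries, against 2.29% of all genes.

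Rps6 and Rplp2 each have a single row, yet hippocampal blast libraries held from under 3 to over 30 CPM of each. Rps6, the small-subunit protein phosphorylated downstream of mTOR, had 72.9, 33.4, 78.1, 2.59 and 34.6 CPM in blast and 1.53, 58.9, 3.28, 2.14 and 1.17 CPM in sham hippocampus. A single sham library and 4 blast libraries stood above 30 CPM, yet the spread left a log2 fold change of 1.73 (SE 1.06) at an edgeR adjusted p of 0.816. In amygdala Rps6 had 53.3, 83.5, 10.96, 37.5 and 85.0 CPM in blast and 102, 4.21, 9.58 and 1.40 CPM in sham libraries. The log2 fold change in amygdala was 0.85, and leaving out 1 library at a time gave 0.47 (without sham 18) to 3.40 (without sham 12). In hippocampus leaving out libraries gave 1.42 (without sham 10) to 4.44 (without sham 12). EdgeR called no member in any of these fits. Rplp2, the other acidic stalk protein, had 71.1, 32.7, 0.880, 57.4 and 0.720 CPM in blast and 23.96, 0.744, 1.11, 0.357 and 30.8 CPM in sham hippocampus, a log2 fold change of 1.49 (SE 1.23). High and low libraries occurred in both groups. Of 70 members at 1 CPM or more in some group, 5 varied over 5-fold within a group, namely Rplp2, Rps6, Rps19 and the 2 Rpl7a rows, and 52 stayed under 2-fold in every group. Without these 5 the member median was 0.21 for hippocampus, 0.085 for amygdala, -0.099 for anterior cortex and -0.090 for cerebellum.

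The paralogues stayed far below their partners. Rpl3l, a form of Rpl3 typical of skeletal and heart muscle, ran from 0 to 1.02 CPM over all libraries, while Rpl3 averaged 362 ± 11.9 CPM in blast and 344 ± 31.2 CPM in sham hippocampus (SD, n = 5 each). Rpl3l was among the members edgeR called lower in sham cerebellum than forebrain (log2 fold change -1.95, SE 0.59, adjusted p = 0.00594). It had 7 counts in total in sham cerebellum. In the blast libraries it was the member not called again, at -1.03 and an edgeR adjusted p of 0.0518. Rps27l, a p53-responsive relative of Rps27, ran from 3.45 to 9.78 CPM. In hippocampus it averaged 6.12 ± 2.14 CPM in blast and 5.16 ± 0.887 CPM in sham libraries, a log2 fold change of 0.22 (SE 0.21) at an edgeR adjusted p of 0.823. Rps27 itself averaged 56.4 ± 14.03 CPM in blast and 42.9 ± 4.94 CPM in sham hippocampus, so that per kilobase it exceeded Rps27l by 18.96 times in blast and 17.1 times in sham libraries.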

How the data were processed

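Whole read counts per gene and library were used as deposited by the authors, 1 table per region, in 36 columns, per the file headers; 72 further per-library columns (normalized values and FPKM) were not used here. The tables also hold the authors' log2 fold changes and p-values, quoted where named. The submitters' processing notes name CASAVA with no version. The aligner, the read counter and the genome build: not given in the sources used here. Per the labels, libraries came from total RNA (Qiazol, RNeasy) by a NEBNext Ultra kit.

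Each region was fitted alone with edgeR 4.0.16 in R 4.3.3 (filterByExpr, TMM, glmQLFit, glmQLFTest, Benjamini-Hochberg over all genes, threshold 0.05), regions and their interaction over joined tables. Alternatives were DESeq2 1.42.0, RLE, no filter, a gene-length trend, a choroid plexus covariate, a replicate block (limma 3.58.1), leaving out libraries and, added later, summed copies and overlap in CPM. The scripts were checked on simulated counts. Libraries of a group differed by at least 6.02 times sampling variance. Named are called members, at most 8 in each direction, or the 6 of smallest p where fewer are called, the stalk genes, Rps6, Rps27a and paralogue pairs; members without overlap and those varying over 5-fold were named after their values were seen. The members and lists were chosen with earlier results of these data known. RefSeq held 72 of the 74 symbols.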

Additional observations from a re-analysis of the deposited data

Results flagged for a closer look

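Within groups of 4 or 5 libraries, 9 of 114 sets of member values had an end library far from the others, beyond the 95% critical value of Dixon's test, which chance gives in about 1 of 20 groups. Hippocampus sham 12 was the high library for Rpl3 (398 CPM, next 339), Rplp0 (354 CPM, next 307), Rps27a (chr 14) (156 CPM, next 78.3) and Rps6 (58.9 CPM, next 3.28). Amygdala sham 12 was high for Rps6 (102 CPM, next 9.58), and amygdala sham 16 was low for Rps2 (162 CPM, next 191). Anterior cortex sham 18 was set apart for Rpl7a (chr 3 proximal) (6.25 CPM, next 5.18). In cerebellum, blast 1 was low for Rps15a (83.6 CPM, next 105) and blast 5 was low for Rplp2 (7.67 CPM, next 22.3).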

How the results depend on the processing

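The sign of the member median held in all 4 regions under DESeq2, RLE, no filter, the length trend, the choroid plexus covariate, summed copies and every left-out library, and edgeR called no member in any blast comparison or in the interaction under these settings. Of the values of single genes, 527 kept their sign and side of the threshold under the alternatives other than leaving out libraries, and 17 turned sign. DESeq2 called 1, 8, 12 and 32 genes in hippocampus, amygdala, anterior cortex and cerebellum and 4 in the interaction, of which 0, 1, 0, 1 and 1 were members, and the cause was not tested. EdgeR called 2 genes in anterior cortex with no filter, 0 with the covariate and 0 with the length trend removed, and in cerebellum 1 with the covariate and 1 with no filter. With the length trend removed, 36 of 74 anterior cortex members and 23 of 71 cerebellum members were higher. Signs turned mostly in values near 0. With the covariate, Rpl3l and Rps27l had log2 fold changes of -0.20 and -0.032 in hippocampus, and Rplp1 and Rps27l of -0.017 and -0.00096 in amygdala. With the length trend removed, Rplp1 and Rps27l stood at -0.024 and -0.028 in amygdala, Rplp1, Rps27a (chr 5) and Rps27l at 0.13, 0.068 and 0.035 in anterior cortex, and Rpl3 at -0.00053 in cerebellum. Rplp1 in anterior cortex was 0.00061 in DESeq2, 0.00055 under RLE and 0.00079 with no filter. With copies summed, an alternative added after the data were seen, Rps27a stood at 0.20 in hippocampus and at -0.14 in cerebellum against forebrain, where its chromosome 14 row was at -0.11 in blast libraries. Members whose amygdala blast libraries all lay above sham numbered 7 on TMM-scaled library sizes and 3 in CPM, a scale also added after the data were seen. Leaving out 1 library at a time gave 0 to 1 called genes in hippocampus and in amygdala, 0 to 2 in anterior cortex, 0 to 2 in cerebellum and 0 to 3 in the interaction. Members higher in blast then numbered 5 (without blast 6) to 23 (without blast 5) in anterior cortex, with 17 without blast 1 or without sham 10, and 8 (without blast 9) to 20 (without sham 13) in cerebellum. The log2 fold changes ran from -0.12 to 0.30 for Rpl3l and -0.31 to 0.33 for Rps27a (chr 14) in hippocampus, and from -0.029 to 0.056 for Rplp1 and -0.063 to 0.087 for Rps27l in amygdala. In anterior cortex they ran from -0.23 to 1.95 for Rpl7a (chr 3 proximal), -0.056 to 0.029 for Rpl3, -0.021 to 0.064 for Rplp0, -0.072 to 0.047 for Rplp1, -3.92 to 0.12 for Rplp2, -0.76 to 0.093 for Rps27a (chr 14), -0.34 to 0.41 for Rps27a (chr 5) and -0.22 to 0.11 for Rps27l. In cerebellum Rpl3 ran from -0.018 to 0.035. In cerebellum against forebrain they ran from -0.042 to 0.26 for Rps27a (chr 14), -0.25 to 0.097 for Rps27l and -1.16 to 0.51 for Rps6. Libraries of different regions share numbers, and blast and sham libraries share none. Of 48 pairs of libraries with the same number, 17 had a correlation of deviations over 0.1 (median 0.087, against -0.012 over 437 other pairs). Of the 36 libraries, 22 correlated best with their own number. The labels do not say whether equal numbers are the same rat, and these correlations do not settle it. The main fits over regions did not pair libraries by number. If equal numbers are the same rat, the p-values of those fits leave the pairing out. With the replicate block the interaction called 0 genes and 0 members, 4 members were called higher and 37 lower in cerebellum against forebrain, and Rps6 stood at 0.89 there. Reads shared between copies of a gene, the 3 anterior cortex blast libraries and rows under 1 CPM limit what these counts can show, and counting error was small beside the spread between libraries.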
